A study of Homo sapiens with 15 samples.

Results

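The genes described here belong to fatty acid oxidation and ketogenesis. They are 34 genes listed by symbol from 8 steps of the pathway: activation of fatty acids, the carnitine shuttle, the acyl-CoA dehydrogenases, electron transfer, the later steps of mitochondrial beta-oxidation, its auxiliary enzymes, peroxisomal oxidation and ketone body formation. All 34 were found among the 35012 gene symbols of the count table, and all 34 were among the 14621 genes that passed the filter on low counts and were tested. The cells were HepG2, an established human liver cancer cell line, grown in DMEM with 10% FCS. They were infected with lentivirus in 8 ug/mL polybrene, selected with puromycin and harvested on day 5. The virus carried a short hairpin RNA against BRG1 (4 libraries), against BRM (3 libraries), against both (double knockdown, 4 libraries) or a non-silencing hairpin (NS, 4 libraries). BRG1 (gene SMARCA4) and BRM (gene SMARCA2) are ATPases, and a SWI/SNF chromatin remodelling complex contains one or the other. Every group, NS included, had thus been through infection and puromycin selection, and how many hairpins were used against each ATPase is not given in the sources used here.

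Fatty acids are first joined to coenzyme A by acyl-CoA synthetases, and long chains then cross the mitochondrial membranes as carnitine esters. Inside, beta-oxidation repeats a cycle of dehydrogenation, hydration, a further dehydrogenation and thiolysis, which releases acetyl-CoA and passes electrons to the respiratory chain. Peroxisomes run a related cycle on very long and branched chains and on bile acid precursors. The liver uses the pathway heavily in fasting and turns part of the acetyl-CoA into ketone bodies for other organs.

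Levels are given as CPM, the estimated counts scaled to a common TMM-adjusted library total, for the libraries in the order of their replicate numbers. Log2 fold changes are followed by ± 1 standard error from edgeR's quasi-likelihood fit across all 15 libraries. A gene is called at a Benjamini-Hochberg adjusted p under 0.05 over the 14621 genes in this fit, unless another fit is named. Library totals ran from 11500149 to 27187991 counts. SMARCA4, which encodes BRG1, averaged 27.8 ± 2.32 CPM in BRG1 libraries, 346 ± 86.7 in BRM libraries, 46.2 ± 6.09 in double libraries and 307 ± 6.99 in NS libraries (SD, with the numbers of libraries above). SMARCA2, which encodes BRM, averaged 25.8 ± 3.64, 4.38 ± 2.22, 2.57 ± 0.299 and 39.2 ± 4.05 CPM in BRG1, BRM, double and NS libraries, so each ATPase was low where its hairpin was named. SMARCA2 in BRG1 libraries (21.6 to 29.5 CPM) also lay below all NS libraries (33.2 to 41.4 CPM). That difference was not called (log2 fold change -0.61 ± 0.23, adjusted p = 0.0712), but passed 0.05 in the authors' deposited table for BRG1 knockdown. Its part in the results below was not tested. SMARCA4 was higher in double than in BRG1 libraries (log2 fold change 0.73 ± 0.16, adjusted p = 0.00858), and the part of that difference in the results below was not tested. Nothing in the labels ties the replicates to separate cultures, and the p-values therefore measure the spread between these samples.

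In each group, replicates 1 and 2 differed from replicates 3 and 4. Mitochondrially encoded transcripts took 4.97 to 8.33% of counts in replicates 1 and 2 and 1.33 to 3.55% in replicates 3 and 4. Results are therefore also given within each set, where replicates 3 and 4 hold 1 BRM library. Of 11 hepatocyte markers, 8 were lower after BRG1 knockdown (ALB, APOB, TTR, TF, FGB, AFP, HNF4A and FOXA2). After BRM knockdown FGB was higher and TTR lower, and no other of the 11 was called. After double knockdown ALB, TTR, AFP and FOXA2 were lower. Their summed level ran from 5608 to 18689 CPM in BRG1, 48940 to 52929 CPM in BRM and 11107 to 25419 CPM in double libraries, against 24058 to 37288 CPM in NS libraries. ALB, APOB, AFP and SERPINA1 made up most of these sums. Their means were 16860, 10314, 8210 and 7122 CPM in BRM libraries and 7407, 9788, 3887 and 5565 CPM in NS libraries. The sums were low where most called oxidation genes were low and high where most were high. The part of the sums in the results below was not tested. In bulk RNA, fewer cells of a type and less RNA per cell cannot be told apart. Among markers of other cells, CD3E was at 0 in every library. LUM and KDR were at 0 in all BRM, double and NS libraries, and CFTR was at 0 in all BRM and double libraries. The 5 cholangiocyte markers summed to 2879 to 5016 CPM in BRG1, 515 to 1028 CPM in BRM and 1295 to 2776 CPM in double libraries, against 1023 to 1505 CPM in NS libraries. KRT19 made up most of these sums, with means of 3622 CPM in BRG1, 552 in BRM, 1758 in double and 934 in NS libraries. Against NS, KRT19 was called higher after BRG1 knockdown, and SOX9 lower after BRM and after double knockdown. No other cholangiocyte marker was called against NS. The 5 blood markers summed to 726 to 1474 CPM in BRG1, 167 to 318 CPM in BRM and 351 to 459.7 CPM in double libraries, against 592 to 1780.3 CPM in NS libraries. LYZ was the largest part of these sums, with means of 986 CPM in BRG1, 112 in BRM, 311 in double and 1016 in NS libraries. Against NS, LYZ was called lower after BRM and double knockdown, and CD74 lower after double knockdown. CD68 went the other way and was called higher after BRM and after double knockdown. The 6 stromal markers summed to at most 245 CPM and the 5 endothelial markers to at most 10.01 CPM in any library.

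Promoter sequence is shown for the pair of genes that encode the mitochondrial trifunctional protein. Their RefSeq starts lie back to back, and the ratio of their counts is compared below. Promoter sequence is also shown for the 2 carnitine shuttle genes that were higher after both BRM and double knockdown. The sequences are from RefSeq on GRCh38.p14, 5′ to 3′, with GC boxes (GGGCGG on either strand) in capitals. HADHA runs on the minus strand and HADHB on the plus strand of chromosome 2, and 306 bases separate their RefSeq starts. The 194 bases at chr2:26244689-26244882 lie in the promoter windows of both genes and are written on the plus strand. The windows of SLC25A20 (chr3:48898883-48899132, minus strand) and CPT1A (chr11:68844278-68844527, minus strand) are the 250 bases before each RefSeq start.
HADHA and HADHB shared window: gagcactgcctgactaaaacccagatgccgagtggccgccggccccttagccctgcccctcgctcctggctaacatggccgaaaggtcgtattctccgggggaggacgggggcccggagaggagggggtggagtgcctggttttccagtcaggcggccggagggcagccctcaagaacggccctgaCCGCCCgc
SLC25A20: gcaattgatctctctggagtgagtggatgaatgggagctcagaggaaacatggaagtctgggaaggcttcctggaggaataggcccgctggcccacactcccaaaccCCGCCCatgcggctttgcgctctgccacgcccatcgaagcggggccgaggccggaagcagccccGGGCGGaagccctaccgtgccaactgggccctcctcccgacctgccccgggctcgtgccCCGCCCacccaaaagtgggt
CPT1A: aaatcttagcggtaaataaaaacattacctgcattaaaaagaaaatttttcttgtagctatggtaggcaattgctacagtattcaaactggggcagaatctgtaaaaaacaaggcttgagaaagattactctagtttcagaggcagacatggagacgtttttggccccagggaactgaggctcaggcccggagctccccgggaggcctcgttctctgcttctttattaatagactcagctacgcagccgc
The shared window holds 1 GC box and 68.6% G or C, the SLC25A20 window 3 GC boxes and 66.0% G or C, and the CPT1A window no GC box and 44.4% G or C. GENCODE places SLC25A20 at chr3:48856931-48898993 and CPT1A at chr11:68754620-68844410, so both GENCODE starts fall inside these windows, and which start HepG2 cells use was not measured. Windows of 250 bases before to 50 after the start were given for 24 of the 34 genes, and not for CRAT, ACAD11, ACAA1, ACOX2, EHHADH, DECR1, ETFDH, ACSM2A, ACSM2B and ACSM3. In those windows a GC box was present for 19 of 24 genes (79.2%) and in 45% of the 35116 windows of all genes. The CCAAT box (CCAAT on either strand) was present for 3 of 24 (12.5%, HADH, ETFA and ACSL3) and in 34.6% of all windows. The nuclear receptor element AGGTCA, on either strand, was present for 1 of 24 (4.17%, ACSL5) and in 13.8% of all windows. The ETS site CGGAAG was present for 4 of 24 (16.7%) and in 19.5% of all windows. The TATA box TATAAA (ACADVL, 4049 of all windows), the E-box CACGTG (ACAD9, all windows 7.26%), the cyclic AMP response element (ACAD9, all windows 1.85%) and the NRF1-like TGCGCA (ETFA, all windows 8.24%) were each present for 1 of 24. The AP-1 site TGANTCA (all windows 7.71%), an HNF4 element (0.384%) and a direct repeat of AGGTCA with 1 base between (0.0228%) were not found in the 24 windows, each searched on both strands. A match describes these letters and does not show that a factor binds there.

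Most called genes of the pathway were lower after BRG1 knockdown and higher after BRM knockdown. After BRG1 knockdown, 15 of the 34 genes (44.1%) were called, 2 higher and 13 lower, where 22.5% of all tested genes were called, 12.5% higher and 9.97% lower. The median log2 fold change of the 34 genes was -0.46, and that of all tested genes 0.02. After BRM knockdown, 21 of the 34 (61.8%) were called, 20 higher and 1 lower, where 13.9% of all tested genes were called, 7.66% higher and 6.26% lower. The median of the 34 genes was then 0.86, and that of all tested genes 0.03. Without BRM replicate 2 the fit called 11 of the 34 genes after BRM knockdown, all higher, where 6.46% of all genes were called. These comparisons share the NS libraries.

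After double knockdown, 9 of the 34 genes (26.5%) were called, 3 higher and 6 lower, where 21.6% of all tested genes were called, 11.8% higher and 9.9% lower. This share is near that of all genes, and the median of the 34 genes was -0.16 against 0.02 for all tested genes. In the direct comparison of BRG1 with BRM knockdown, which uses no NS library in its contrast, 25 of the 34 (73.5%) were called, 1 higher and 24 lower, where 33.9% of all tested genes were called, 17.2% higher and 16.7% lower. The median there was -1.25 for the 34 genes and -0.02 for all tested genes. Scaling by total counts in place of TMM moved the median of all genes by over 0.1 in the comparisons with BRM libraries. It put that median at -0.14 for BRM against NS and 0.18 for BRG1 against BRM, while the medians of the 34 genes became 0.68 and -1.04. With that scaling 34.3% of all calls were higher for BRM against NS, in place of 55.0%, and 65.2% for BRG1 against BRM, in place of 50.8%. Among the 34 genes it gave 13 higher and 1 lower for BRM against NS, where 13.1% of all genes were called, and 1 higher and 23 lower for BRG1 against BRM, where 34.3% were called.

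Within replicates 1 and 2, 21 of the 34 genes were called after BRG1 knockdown (3 higher, 18 lower, where 39% of all genes were called) and 27 after BRM knockdown (26 higher, 1 lower, where 28.1% were called). Within replicates 3 and 4, the counts were 15 (2 higher, 13 lower, where 25.5% were called) after BRG1 knockdown and 16 (15 higher, 1 lower, where 20.8% were called) after BRM knockdown. For double knockdown the counts were 13 within replicates 1 and 2 (4 higher, 9 lower, where 29.5% of all genes were called) and 19 within replicates 3 and 4 (5 higher, 14 lower, where 34.3% were called). For BRG1 against BRM they were 30 (2 higher, 28 lower, where 50.1% were called) and 25 (1 higher, 24 lower, where 30.2% were called).

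Some calls made with all libraries were lost within a set or with total counts. Of the 21 BRM calls, 9 were lost within replicates 3 and 4 (CPT2, ACADVL, ACADM, ACAD9, ACAA1, EHHADH, HSD17B4, ETFA and ETFDH) and 7 with total counts (ACADM, ACAD9, ACAA1, EHHADH, HSD17B4, ETFDH and ACSM3). Of the 15 BRG1 calls, 4 were lost within replicates 3 and 4 (ACAA1, ETFA, ACSL5 and BDH1) and 1 with total counts (ETFA). Of the 9 double calls, 2 were lost within replicates 1 and 2 (CPT1A and SLC25A20) and 1 with total counts (ETFDH). DECR1 was the call between BRG1 and BRM libraries that was lost within replicates 3 and 4 and with total counts.

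**Figure D1:**
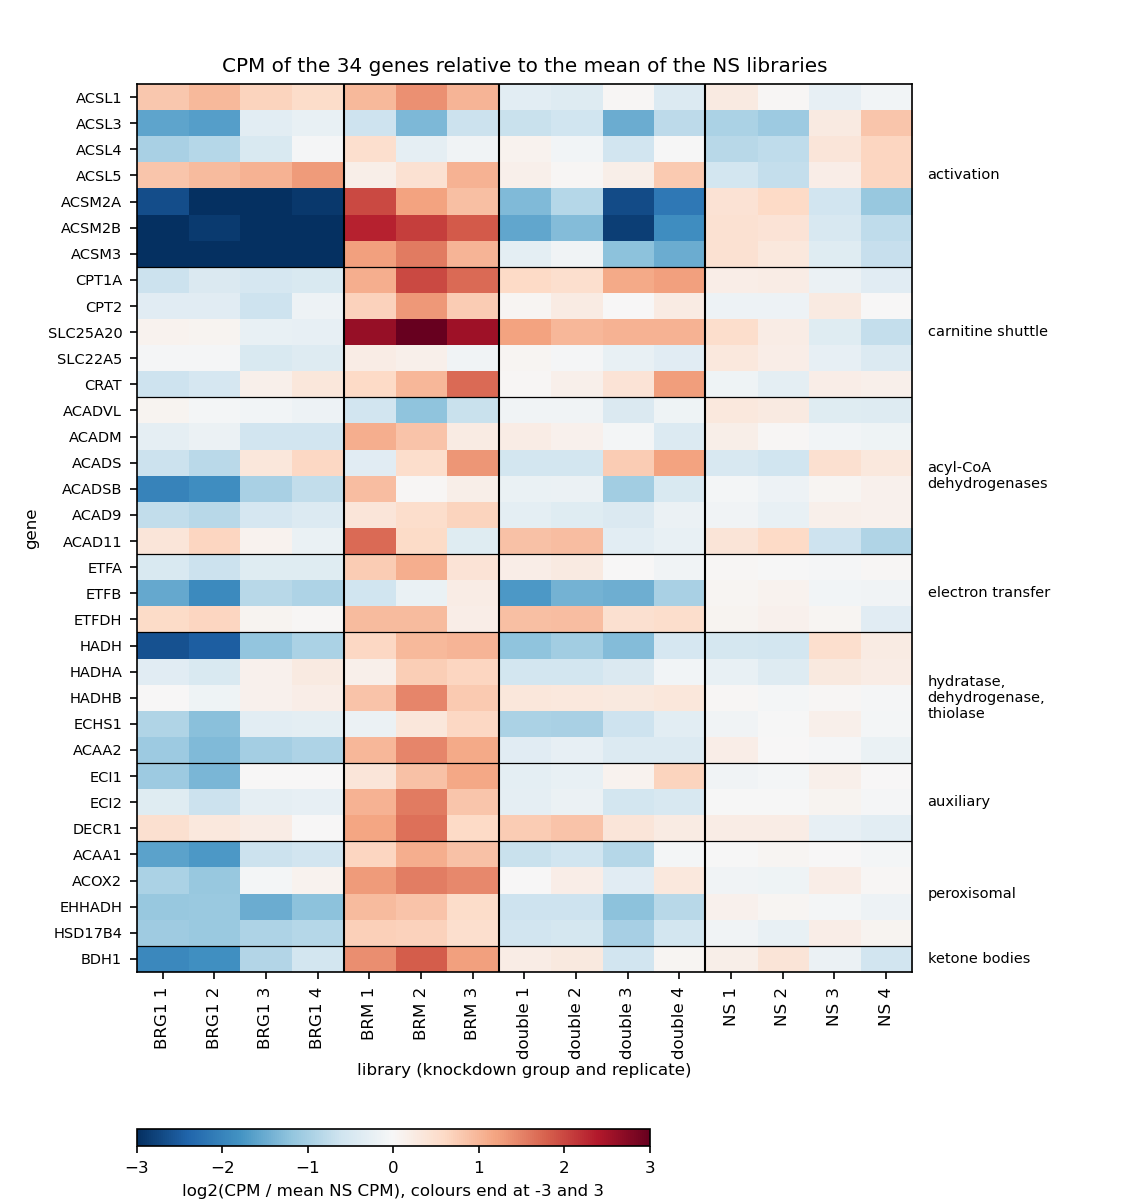
CPM of each of the 34 genes (rows, grouped by step) in each of the 15 libraries (columns), as the log2 ratio to the mean of the NS libraries. BRM libraries are mostly red (higher than NS), BRG1 libraries mostly blue, and double libraries paler in between, with ACSM2A, ACSM2B and ACSM3 lowest in BRG1 libraries and SLC25A20 highest in BRM libraries.

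Of the 7 activation genes, 2 rose and 3 fell after BRG1 knockdown, 3 rose after BRM knockdown and 2 fell after double knockdown. The medium-chain acyl-CoA synthetases ACSM2A, ACSM2B and ACSM3, which attach coenzyme A to medium-chain acids in the mitochondrial matrix, showed the largest decreases of all 34 genes after BRG1 knockdown. ACSM3 had 9.31, 10.4, 6.92 and 9.34 CPM in BRG1 libraries, 199, 252 and 173 in BRM libraries, 68.8, 78.9, 36.3 and 30.4 in double libraries and 116, 105, 66.1 and 52.7 in NS libraries. All BRG1 libraries were below, and all BRM libraries above, every NS library, while double libraries overlapped NS. ACSM3 fell after BRG1 knockdown (log2 fold change -3.24 ± 0.34, adjusted p = 2.22e-05) and rose after BRM knockdown (1.29 ± 0.33, adjusted p = 0.0187), where the call was lost without BRM replicate 2, NS replicate 3 or NS replicate 4. ACSM3 did not pass the test after double knockdown (-0.66 ± 0.31, adjusted p = 0.15) in the unpaired fit, and was called lower when paired by replicate number (-0.70, adjusted p = 0.00854) and within each set.

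ACSM2B had 0.592, 1.09, 0.914 and 0.246 CPM in BRG1 libraries, 39.4, 33.5 and 28.3 in BRM libraries, 2.68, 3.24, 1.12 and 2.17 in double libraries and 10.8, 10.5, 5.72 and 4.65 in NS libraries. Its groups did not overlap in any comparison with NS. ACSM2B fell after BRG1 knockdown (log2 fold change -3.47 ± 0.44, adjusted p = 7.82e-05), rose after BRM knockdown (2.09 ± 0.40, adjusted p = 0.0036) and fell after double knockdown (-1.80 ± 0.40, adjusted p = 0.00493). ACSM2A had 0.749, 0.362, 0.435 and 0.639 CPM in BRG1 libraries, 18.7, 11.00 and 8.94 in BRM libraries, 1.91, 2.63, 0.738 and 1.09 in double libraries and 6.46, 7.21, 3.23 and 2.18 in NS libraries. BRG1 libraries held 7 to 19 ACSM2A counts and 5 to 21 ACSM2B counts each, so these low values carry a large counting error. ACSM2A fell after BRG1 knockdown (log2 fold change -3.10 ± 0.49, adjusted p = 0.000493) and after double knockdown (-1.60 ± 0.46, adjusted p = 0.0211), where double replicate 2 lay above NS replicate 4 and the call was lost without NS replicate 1, NS replicate 2, double replicate 3 or double replicate 4. After BRM knockdown ACSM2A missed the threshold (1.43 ± 0.46, adjusted p = 0.0537) in edgeR's fit of all libraries and was called higher by DESeq2, and all 3 BRM libraries were above all NS libraries.

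ACSM2A (chr16:20451461-20487667, plus strand), ACSM2B (chr16:20536226-20576427, minus strand) and ACSM3 (chr16:20610243-20797581, plus strand) lie side by side on GRCh38, with the related ACSM5 and ACSM1 beside or within that stretch. ACSM5 also fell after BRG1 knockdown (log2 fold change -3.36 ± 0.51, adjusted p = 0.000309) and after double knockdown (-3.50 ± 0.52, adjusted p = 0.000273), and was not called after BRM knockdown (-1.03 ± 0.49, adjusted p = 0.19). Its level was only 0.0491 to 0.276 CPM in BRG1, 0.784 to 1.29 in BRM, 0.0674 to 0.219 in double and 1.11 to 3.40 in NS libraries. The sizes of these changes therefore carry a large counting error. ACSM1 had 0.434, 0.517, 0.479 and 0.491 CPM in BRG1 libraries, 3.55, 4.90 and 2.17 in BRM libraries, 1.53, 1.21, 1.018 and 1.03 in double libraries and 2.04, 2.08, 0.830 and 0.372 in NS libraries. ACSM1 fell after BRG1 knockdown (log2 fold change -1.46 ± 0.47, adjusted p = 0.0378), although all BRG1 libraries were above NS replicate 4. ACSM1 was not called after BRM knockdown (1.41 ± 0.47, adjusted p = 0.0611), where all BRM libraries were above all NS libraries, or after double knockdown (-0.15 ± 0.45, adjusted p = 0.863). ACSM2A and ACSM2B share 54.8% of the 31-base words of ACSM2A's transcripts, so the split of reads between them is uncertain. With the counts of both genes summed, all 10 calls of these genes held in the same direction. ACSM1 lies within ACSM3 on the other strand, and whether counting used strand is not given in the sources used here.

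Among the long-chain acyl-CoA synthetases, ACSL1 and ACSL5 rose after BRG1 knockdown. ACSL1, the main long-chain enzyme of liver, had 95.2, 107, 85.7 and 79.6 CPM in BRG1 libraries, 107, 141 and 111 in BRM libraries, 43.8, 41.4, 55.2 and 40.5 in double libraries and 64.9, 55.5, 45.6 and 50.8 in NS libraries. All BRG1 and all BRM libraries were above all NS libraries, while double libraries overlapped NS. ACSL1 rose after BRG1 knockdown (log2 fold change 0.76 ± 0.16, adjusted p = 0.00349) and after BRM knockdown (1.14 ± 0.17, adjusted p = 0.000724), and was not called after double knockdown (-0.26 ± 0.16, adjusted p = 0.284). ACSL5, a long-chain enzyme of mitochondria and endoplasmic reticulum, had 106, 116, 123 and 144 CPM in BRG1 libraries, 67.1, 82.1 and 122 in BRM libraries, 66.03, 61.1, 67.1 and 102 in double libraries and 40.8, 36.5, 68.3 and 92.6 in NS libraries. ACSL5 rose after BRG1 knockdown (log2 fold change 1.03 ± 0.29, adjusted p = 0.0175), a call lost without NS replicate 1, NS replicate 2 or BRG1 replicate 4. ACSL3, a long-chain enzyme linked to lipid droplets, and ACSL4, which prefers arachidonate, passed the test in none of the 4 comparisons above. ACSL3 ranged over 99.7 to 268 CPM in BRG1, 122 to 201 in BRM, 112 to 206 in double and 147 to 557 in NS libraries. ACSL4 ranged over 159 to 304 CPM in BRG1, 259 to 439.5 in BRM, 209.6 to 334 in double and 176 to 484 in NS libraries, and both were higher in NS replicates 3 and 4 than in NS replicates 1 and 2. After double knockdown the log2 fold change of ACSL4 was 0.81 within replicates 1 and 2 (adjusted p = 0.0236) and -0.83 within replicates 3 and 4 (adjusted p = 0.0215), opposite in direction. That of ACSL3 after BRG1 knockdown was -0.60 within replicates 1 and 2 (adjusted p = 0.0468) and -0.89 within replicates 3 and 4 (adjusted p = 0.0376), and after double knockdown 0.38 within replicates 1 and 2 (adjusted p = 0.211) and -1.73 within replicates 3 and 4 (adjusted p = 0.00192). Paired by replicate number, ACSL4 was lower after BRG1 than after BRM knockdown (-0.80, adjusted p = 0.0466).

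**Figure D2:**
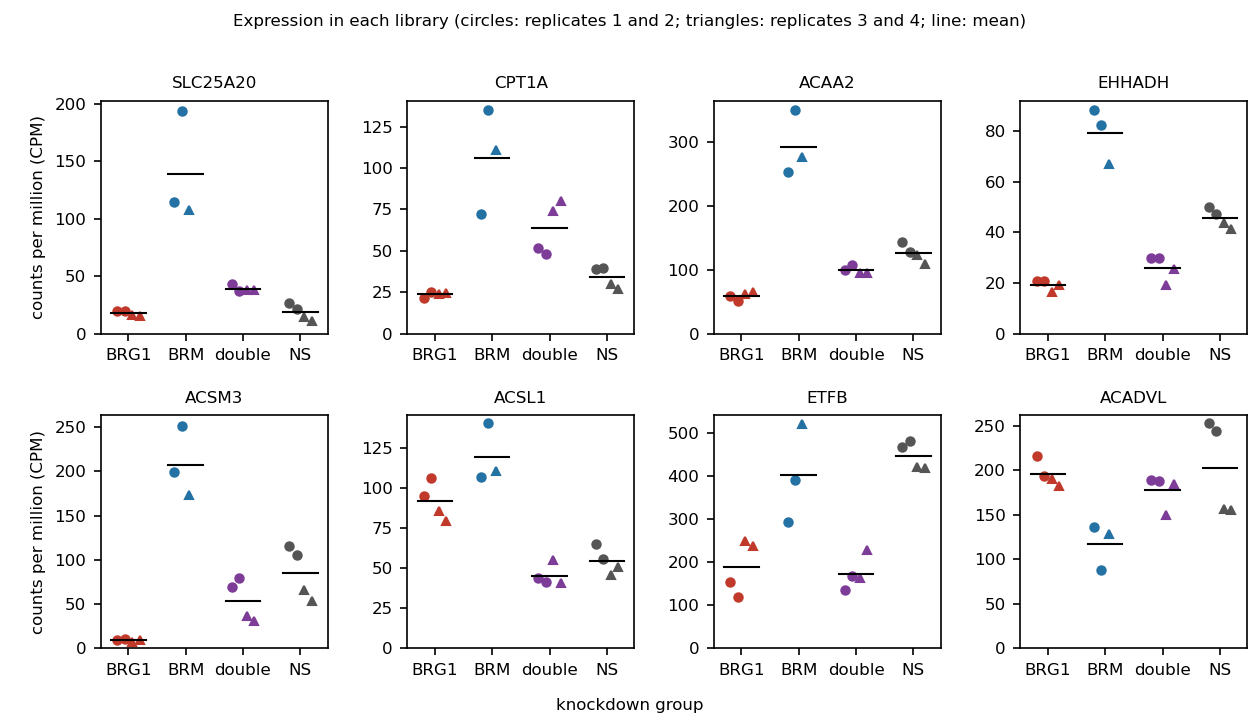
CPM of 8 of the genes in every library, by group, on axes that start at 0. The means of SLC25A20, CPT1A and ACAA2 are highest in BRM libraries, ACSM3 is near 0 in BRG1 libraries, ACSL1 is high after either single knockdown but not after double knockdown, and ETFB is low in BRG1 and double libraries.

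Of the 5 shuttle genes, 4 rose after BRM knockdown, 2 after double knockdown and none was called after BRG1 knockdown, where edgeR gave an unadjusted p under 0.05 for CPT1A alone and DESeq2 also called none of the 5. SLC25A20, the translocase that exchanges acylcarnitine for carnitine across the inner mitochondrial membrane, had 19.96, 19.5, 15.9 and 15.6 CPM in BRG1 libraries, 114, 194 and 108 in BRM libraries, 42.9, 36.8, 38.2 and 38.4 in double libraries and 26.8, 21.8, 14.4 and 11.4 in NS libraries. The lowest BRM library was above 4 times the highest NS library, and all double libraries were also above all NS libraries. SLC25A20 rose after BRM knockdown (log2 fold change 2.90 ± 0.27, adjusted p = 4.22e-05), the largest increase of the 34 genes there, and after double knockdown (1.07 ± 0.25, adjusted p = 0.00695). After BRG1 knockdown SLC25A20 overlapped NS (-0.07 ± 0.25, adjusted p = 0.891).

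CPT1A, the outer-membrane carnitine palmitoyltransferase that limits the rate of entry in liver, had 21.7, 25.3, 23.97 and 24.6 CPM in BRG1 libraries, 72.1, 135 and 111 in BRM libraries, 51.8, 48.3, 74.3 and 80.1 in double libraries and 39.1, 39.6, 30.3 and 27.00 in NS libraries. CPT1A rose after BRM knockdown (log2 fold change 1.64 ± 0.23, adjusted p = 0.00045) and after double knockdown (0.90 ± 0.22, adjusted p = 0.00769), where the log2 fold change was 0.35 within replicates 1 and 2 and 1.39 within replicates 3 and 4. All 4 BRG1 libraries were below all NS libraries for CPT1A, but the difference missed the threshold (-0.51 ± 0.22, adjusted p = 0.11).

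CPT2, the inner-membrane partner enzyme, had 14.99, 14.9, 12.4 and 17.2 CPM in BRG1 libraries, 30.9, 47.2 and 32.1 in BRM libraries, 20.01, 22.5, 19.2 and 22.5 in double libraries and 17.2, 17.1, 22.8 and 19.1 in NS libraries. Only the BRM libraries stood clear of NS, and CPT2 rose after BRM knockdown (log2 fold change 0.95 ± 0.18, adjusted p = 0.00315), with 1.19 within replicates 1 and 2 (adjusted p = 0.00326) and 0.54 within replicates 3 and 4 (adjusted p = 0.142). CRAT, the carnitine acetyltransferase, had 35.9, 38.5, 61.2 and 70.02 CPM in BRG1 libraries, 83.6, 109 and 178 in BRM libraries, 56.3, 61.2, 72.98 and 132 in double libraries and 50.5, 45.01, 63.6 and 60.8 in NS libraries. CRAT rose after BRM knockdown (log2 fold change 1.17 ± 0.33, adjusted p = 0.0294), a call lost without BRM replicate 2 or 3 or NS replicate 1, 2 or 4, and its value without BRM replicate 3 was 0.78. After double knockdown CRAT was not called in the unpaired fit (0.55 ± 0.31, adjusted p = 0.233) and was called higher when paired by replicate number (0.48, adjusted p = 0.0351) or with a term for the replicate set (0.50, adjusted p = 0.0246). SLC22A5, the carnitine importer of the plasma membrane, was called in none of the 7 comparisons with all libraries, and ranged over 9.14 to 12.2 CPM in BRG1, 11.6 to 14.4 in BRM, 9.90 to 12.9 in double and 9.34 to 15.6 in NS libraries.

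Of the 6 acyl-CoA dehydrogenases, which open each round of oxidation, 2 fell after BRG1 knockdown, 2 rose and 1 fell after BRM knockdown, and none was called after double knockdown, where edgeR gave 1 an unadjusted p under 0.05 (ACAD9) and DESeq2 called none. ACADVL, the very long chain enzyme bound to the inner membrane, was the 1 gene of the 34 that fell after BRM knockdown. ACADVL had 216, 194, 190.4 and 182 CPM in BRG1 libraries, 136, 88.00 and 128 in BRM libraries, 189, 188, 149.8 and 185 in double libraries and 254, 244, 157 and 156 in NS libraries. The BRM libraries were all below the NS libraries, but NS replicates 1 and 2 lay far above NS replicates 3 and 4. ACADVL fell after BRM knockdown (log2 fold change -0.79 ± 0.21, adjusted p = 0.0246), with -1.15 within replicates 1 and 2 and -0.37 within replicates 3 and 4, and the call was lost without NS replicate 1 or BRM replicate 2. ACADM, the medium-chain enzyme, had 37.9, 40.3, 30.7 and 30.5 CPM in BRG1 libraries, 97.03, 82.00 and 54.1 in BRM libraries, 53.3, 49.8, 43.9 and 34.2 in double libraries and 51.8, 46.3, 42.7 and 41.3 in NS libraries. ACADM rose after BRM knockdown (log2 fold change 0.77 ± 0.20, adjusted p = 0.0212), a call lost without BRM replicate 1 or 2 or NS replicate 2, 3 or 4. After BRG1 knockdown ACADM was not called in the unpaired fit (-0.39 ± 0.19, adjusted p = 0.171), and was called lower when paired by replicate number (-0.39, adjusted p = 0.0263) and within replicates 3 and 4.

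ACADSB, which acts on short branched chains from isoleucine, had 42.4, 46.7, 86.2 and 102 CPM in BRG1 libraries, 321, 175 and 192 in BRM libraries, 147, 149, 82.1 and 124 in double libraries and 162, 154, 177 and 186 in NS libraries. BRG1 and double libraries were below all NS libraries. ACADSB fell after BRG1 knockdown (log2 fold change -1.29 ± 0.30, adjusted p = 0.00581), with -1.83 within replicates 1 and 2 and -0.98 within replicates 3 and 4. ACAD9, which also serves in complex I assembly, had 24.8, 22.9, 29.1 and 31.2 CPM in BRG1 libraries, 52.8, 59.2 and 65.3 in BRM libraries, 33.7, 31.97, 30.2 and 36.3 in double libraries and 38.1, 35.3, 45.8 and 45.2 in NS libraries. ACAD9 fell after BRG1 knockdown (log2 fold change -0.61 ± 0.14, adjusted p = 0.00688) and rose after BRM knockdown (0.52 ± 0.15, adjusted p = 0.0336), and neither group overlapped NS. The BRM call of ACAD9 was lost without NS replicate 1, NS replicate 2, BRM replicate 2 or BRM replicate 3. ACADS, the short-chain enzyme, and ACAD11, a further member of the family, passed the test in none of the 4 comparisons. ACADS ranged over 18.3 to 48.99 CPM in BRG1, 25.4 to 80.3 in BRM, 21.7 to 73.6 in double and 21.1 to 44.2 in NS libraries. ACAD11 ranged over 19.5 to 34.6 CPM in BRG1, 17.4 to 72.6 in BRM, 17.8 to 42.2 in double and 11.9 to 33.6 in NS libraries. Within sets, ACADS after BRM knockdown was 0.71 within replicates 1 and 2 (adjusted p = 0.0577) and 0.86 within replicates 3 and 4 (adjusted p = 0.025), and ACAD11 after BRG1 knockdown was 0.01 within replicates 1 and 2 (adjusted p = 0.978) and 0.68 within replicates 3 and 4 (adjusted p = 0.0233). Paired by replicate number, ACADS was lower after BRG1 than after BRM knockdown (-0.90, adjusted p = 0.00171). ACAD11 shares 80.8% of its 31-base words with other genes, mainly with a readthrough transcript, so its count is uncertain.

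Electron transfer flavoprotein, the dimer of ETFA and ETFB, carries electrons from the acyl-CoA dehydrogenases to ETFDH, which passes them to ubiquinone. Of the 3 genes, 2 fell after BRG1 knockdown, 2 rose after BRM knockdown, and 1 rose and 1 fell after double knockdown. ETFB had 154, 119, 249.5 and 236 CPM in BRG1 libraries, 294, 390.5 and 522 in BRM libraries, 136, 167, 163 and 227 in double libraries and 469, 482, 421 and 418 in NS libraries. All BRG1 and all double libraries were below all NS libraries, and BRM libraries overlapped NS. ETFB fell after BRG1 knockdown (log2 fold change -1.24 ± 0.25, adjusted p = 0.00248) and after double knockdown (-1.37 ± 0.25, adjusted p = 0.00131), and was not called after BRM knockdown (-0.15 ± 0.27, adjusted p = 0.776). ETFA had 102, 90.2, 109 and 110.0 CPM in BRG1 libraries, 237, 298 and 188 in BRM libraries, 160.1, 169, 140.3 and 131 in double libraries and 143, 139, 136 and 143 in NS libraries. ETFA fell after BRG1 knockdown (log2 fold change -0.45 ± 0.15, adjusted p = 0.0459), a call lost without BRG1 replicate 1, 2 or 3 or NS replicate 1, 2, 3 or 4. ETFA rose after BRM knockdown (log2 fold change 0.78 ± 0.16, adjusted p = 0.00576), a call lost without BRM replicate 2. ETFDH had 16.3, 17.2, 11.7 and 11.3 CPM in BRG1 libraries, 21.4, 21.2 and 12.5 in BRM libraries, 20.7, 20.98, 15.4 and 15.9 in double libraries and 11.7, 12.01, 11.4 and 8.74 in NS libraries. ETFDH rose after BRM knockdown (log2 fold change 0.74 ± 0.23, adjusted p = 0.0442), a call lost without BRM replicate 1 or 2 or NS replicate 1, 2, 3 or 4, and after double knockdown (0.73 ± 0.22, adjusted p = 0.0243), a call lost without double replicate 1, double replicate 2 or NS replicate 4.

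**Figure D3:**
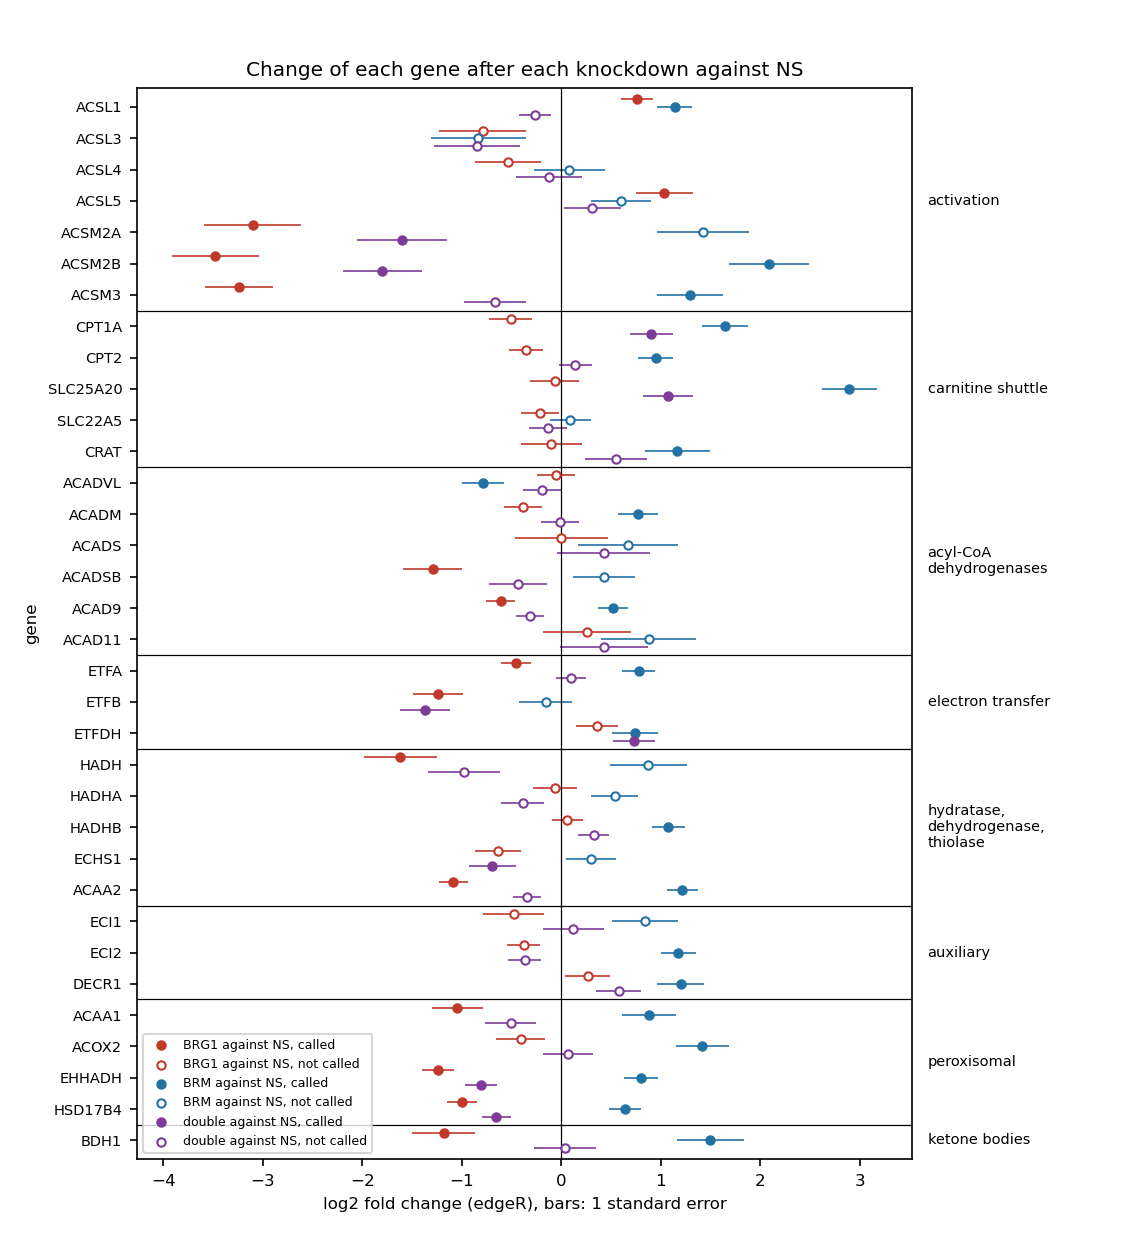
Log2 fold change of each of the 34 genes after BRG1, BRM and double knockdown against the same NS libraries, with bars of 1 standard error and filled points for called genes. Blue BRM points lie mostly right of 0 and red BRG1 points mostly left, and ACSL1 and ACSL5 are the only filled red points right of 0.

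Of the 5 genes of the hydratase, dehydrogenase and thiolase steps, 2 fell after BRG1 knockdown, 2 rose after BRM knockdown and 1 fell after double knockdown. ACAA2, the mitochondrial thiolase that splits off acetyl-CoA, had 58.7, 50.5, 62.3 and 65.6 CPM in BRG1 libraries, 252, 349 and 276 in BRM libraries, 99.5, 107, 95.2 and 95.1 in double libraries and 144, 127, 123 and 109 in NS libraries. The BRG1, BRM and double libraries each stood clear of the NS libraries. ACAA2 fell after BRG1 knockdown (log2 fold change -1.08 ± 0.15, adjusted p = 0.000131) and rose after BRM knockdown (1.22 ± 0.15, adjusted p = 0.000216), and after double knockdown it was not called by edgeR (-0.34 ± 0.14, adjusted p = 0.107) but was called lower by DESeq2. HADH, the dehydrogenase of medium and short 3-hydroxyacyl chains, had 7.89, 8.63, 21.1 and 24.96 CPM in BRG1 libraries, 73.7, 93.7 and 96.96 in BRM libraries, 20.8, 23.5, 19.4 and 33.9 in double libraries and 33.1, 32.99, 68.5 and 57.4 in NS libraries. HADH fell after BRG1 knockdown (log2 fold change -1.62 ± 0.37, adjusted p = 0.00577), with -2.001 within replicates 1 and 2 and -1.49 within replicates 3 and 4. After BRM knockdown its libraries lay above NS but missed the threshold with all libraries (0.88 ± 0.38, adjusted p = 0.154). HADH was then called higher within replicates 1 and 2 (1.34, adjusted p = 0.000515), and the value within replicates 3 and 4 was 0.54. After double knockdown HADH was not called in edgeR's unpaired fit (-0.98 ± 0.36, adjusted p = 0.0702), and was called lower when paired by replicate number (-0.92, adjusted p = 0.00803), by DESeq2 and within each set.

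ECHS1, the short-chain hydratase, had 79.3, 61.8, 118 and 120.5 CPM in BRG1 libraries, 131, 186 and 228 in BRM libraries, 75.7, 75.1, 96.1 and 118 in double libraries and 137, 146, 164 and 142 in NS libraries. BRG1 and double libraries were below all NS libraries. ECHS1 fell after double knockdown (log2 fold change -0.69 ± 0.23, adjusted p = 0.0477), a call lost without double replicate 1, 2 or 3 or NS replicate 1, 2, 3 or 4. After BRG1 knockdown ECHS1 was not called in edgeR's unpaired fit (-0.63 ± 0.23, adjusted p = 0.0673), and was called lower when paired by replicate number (-0.68, adjusted p = 0.00426), by DESeq2 and within replicates 1 and 2.

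HADHA and HADHB encode the alpha and beta subunits of the trifunctional protein, and their RefSeq starts flank the window shown above. GENCODE puts the HADHA start at chr2:26244726, inside that window, and the HADHB start at chr2:26243170, outside it. HADHB had 204, 186, 223 and 233 CPM in BRG1 libraries, 365, 563 and 351 in BRM libraries, 258, 254, 247 and 257 in double libraries and 208, 194, 209 and 199 in NS libraries. HADHB rose after BRM knockdown (log2 fold change 1.07 ± 0.17, adjusted p = 0.000838), and all double libraries also lay above all NS libraries without passing the test (0.33 ± 0.16, adjusted p = 0.154). HADHA had 303, 276, 417 and 462 CPM in BRG1 libraries, 425, 636 and 593 in BRM libraries, 260.2, 258, 283 and 361 in double libraries and 326, 289, 464 and 441 in NS libraries. HADHA was not called after BRG1 (-0.06 ± 0.22, adjusted p = 0.884), BRM (0.54 ± 0.23, adjusted p = 0.153) or double knockdown (-0.39 ± 0.22, adjusted p = 0.237). Within sets HADHA was 0.79 within replicates 1 and 2 (adjusted p = 0.0156) and 0.31 within replicates 3 and 4 (adjusted p = 0.296) after BRM knockdown, and -0.25 within replicates 1 and 2 (adjusted p = 0.369) and -0.54 within replicates 3 and 4 (adjusted p = 0.0333) after double knockdown. Paired by replicate number, HADHA was lower after BRG1 than after BRM knockdown (-0.73, adjusted p = 0.00171).

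The ratio of HADHA to HADHB counts needs no scaling between libraries. It was 1.01, 1.02, 1.15 and 1.40 in double libraries, and 1.57, 1.49, 2.22 and 2.21 in NS libraries, with no overlap. The mean ratio was 1.14 ± 0.18 in double libraries and 1.87 ± 0.40 in NS libraries (SD, n = 4 each), a log2 difference of -0.70. An exact two-sided permutation test gave p = 0.0286, the smallest it can give, and 0.0857 after adjustment over the 3 knockdowns. The difference was -0.59 within replicates 1 and 2 and -0.81 within replicates 3 and 4. BRM libraries had ratios of 1.16, 1.13 and 1.69 (log2 difference from NS -0.50, exact permutation p = 0.171, adjusted 0.257). BRG1 libraries had ratios of 1.48, 1.48, 1.87 and 1.98 (log2 difference -0.13, exact permutation p = 0.514). That test leaves out the replicate numbers. Each of the 4 BRG1 and each of the 4 double libraries had a lower ratio than the NS library of the same number, and so had all 3 BRM libraries. An exact sign-flip permutation test of the paired differences gave p = 0.125 for BRG1 and for double knockdown, the smallest that 4 pairs can give. The ratio was chosen after the values of both genes had been seen. In GENCODE the 2 genes overlap on opposite strands (HADHA chr2:26190635-26244726, HADHB chr2:26243170-26290468), so reads from the overlap cannot be told apart if counting did not use strand, and 15.9% of HADHA's 31-base words occur in other genes.

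**Figure D4:**
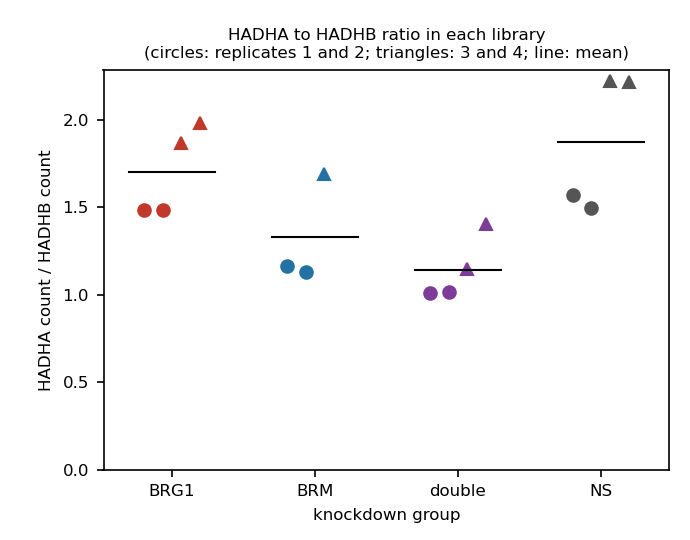
Ratio of HADHA to HADHB counts in each library, by group, with the group mean as a line. The double libraries lie between 1.01 and 1.40, below every NS library, and replicates 3 and 4 lie above replicates 1 and 2 in every group.

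ECI1 and ECI2 are isomerases and DECR1 a reductase that let unsaturated chains enter the cycle. ECI2 and DECR1 rose after BRM knockdown, and none of the 3 was called after BRG1 or double knockdown, where edgeR gave unadjusted p-values under 0.05 to ECI2 after both and to DECR1 after double knockdown, and DESeq2 called none. ECI2 had 91.3, 75.4, 96.9 and 98.8 CPM in BRG1 libraries, 242, 346 and 209 in BRM libraries, 96.9, 103, 80.5 and 84.4 in double libraries and 116, 116, 124 and 114 in NS libraries. Its BRM libraries were above, and its BRG1 and double libraries below, all NS libraries. ECI2 rose after BRM knockdown (log2 fold change 1.18 ± 0.18, adjusted p = 0.000694), and the lower values after BRG1 (-0.38 ± 0.16, adjusted p = 0.122) and double knockdown (-0.36 ± 0.16, adjusted p = 0.133) missed the threshold. DECR1 had 51.95, 46.7, 43.9 and 37.7 CPM in BRG1 libraries, 84.8, 117 and 56.4 in BRM libraries, 63.8, 67.7, 48.01 and 44.6 in double libraries and 43.9, 44.04, 31.6 and 30.3 in NS libraries. DECR1 rose after BRM knockdown (log2 fold change 1.200 ± 0.24, adjusted p = 0.00426), and its double libraries, all above NS, were not called in the unpaired fit (0.58 ± 0.22, adjusted p = 0.0814) and were called when paired by replicate number (0.58, adjusted p = 0.00444) and within each set. ECI1 averaged 58.7 ± 27.5, 146 ± 38.8, 88.8 ± 29.04 and 81.6 ± 6.17 CPM in BRG1, BRM, double and NS libraries (SD). ECI1 was not called after BRM knockdown with all libraries (0.84 ± 0.33, adjusted p = 0.11), although its BRM libraries were all above NS. It was called higher within replicates 1 and 2 (0.73, adjusted p = 0.0166), and the value within replicates 3 and 4 was 1.01. After BRG1 knockdown ECI1 was not called in the unpaired fit (-0.48 ± 0.31, adjusted p = 0.309). It was called lower when paired by replicate number (-0.59, adjusted p = 0.0341) and within replicates 1 and 2.

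All 4 peroxisomal genes rose after BRM knockdown, and 3 of them fell after BRG1 knockdown. EHHADH, the bifunctional hydratase and dehydrogenase of straight chains, had 20.8, 20.9, 16.3 and 19.4 CPM in BRG1 libraries, 88.3, 82.4 and 66.9 in BRM libraries, 29.7, 29.7, 19.4 and 25.4 in double libraries and 49.8, 47.2, 43.8 and 41.1 in NS libraries. None of the knockdown groups overlapped NS. EHHADH fell after BRG1 knockdown (log2 fold change -1.23 ± 0.16, adjusted p = 0.000104), rose after BRM knockdown (0.80 ± 0.17, adjusted p = 0.00623) and fell after double knockdown (-0.80 ± 0.16, adjusted p = 0.00232). After BRM knockdown EHHADH was 0.82 within replicates 1 and 2 (adjusted p = 0.00191) and 0.57 within replicates 3 and 4 (adjusted p = 0.0786), and with total counts the call was lost. HSD17B4, the bifunctional enzyme of branched chains and bile acid precursors, had 82.96, 80.3, 91.5 and 95.9 CPM in BRG1 libraries, 286, 283 and 249 in BRM libraries, 117, 122, 87.6 and 118 in double libraries and 163, 149.5, 201 and 185 in NS libraries. HSD17B4 fell after BRG1 knockdown (log2 fold change -0.99 ± 0.15, adjusted p = 0.000296), rose after BRM knockdown (0.64 ± 0.16, adjusted p = 0.0149), a call lost without NS replicate 2 or BRM replicate 2, and fell after double knockdown (-0.65 ± 0.15, adjusted p = 0.00567).

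ACAA1, the peroxisomal thiolase, had 49.7, 45.9, 95.4 and 101 CPM in BRG1 libraries, 236, 319 and 275 in BRM libraries, 95.1, 99.4, 83.2 and 145 in double libraries and 150.2, 157, 150.5 and 144 in NS libraries. ACAA1 fell after BRG1 knockdown (log2 fold change -1.04 ± 0.26, adjusted p = 0.00873), with -1.68 within replicates 1 and 2 and -0.62 within replicates 3 and 4. ACAA1 rose after BRM knockdown (log2 fold change 0.88 ± 0.27, adjusted p = 0.0429), where the groups did not overlap but the call was lost without BRM replicate 2 or 3 or NS replicate 1, 2, 3 or 4. ACOX2, the oxidase of branched chains and bile acid precursors, had 15.5, 13.6, 28.9 and 32.2 CPM in BRG1 libraries, 72.2, 86.2 and 81.3 in BRM libraries, 30.2, 34.6, 23.6 and 37.2 in double libraries and 27.6, 27.23, 34.3 and 30.5 in NS libraries. BRM libraries were above all NS libraries, and the other groups overlapped NS. ACOX2 rose after BRM knockdown (log2 fold change 1.42 ± 0.27, adjusted p = 0.00281) and was not called after BRG1 (-0.41 ± 0.25, adjusted p = 0.275) or double knockdown (0.07 ± 0.25, adjusted p = 0.887).

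BDH1, which interconverts acetoacetate and 3-hydroxybutyrate in mitochondria, is the ketone body gene among the 34. BDH1 had 4.89, 5.17, 10.01 and 12.6 CPM in BRG1 libraries, 48.5, 65.2 and 43.5 in BRM libraries, 21.5, 22.9, 12.4 and 19.5 in double libraries and 20.9, 24.3, 16.4 and 12.5 in NS libraries. BDH1 rose after BRM knockdown (log2 fold change 1.499 ± 0.33, adjusted p = 0.00846), a call lost without BRM replicate 2. BDH1 fell after BRG1 knockdown (log2 fold change -1.18 ± 0.32, adjusted p = 0.0149), with -2.17 within replicates 1 and 2 and -0.38 within replicates 3 and 4, and BRG1 replicate 4 lay just above NS replicate 4. After double knockdown BDH1 overlapped NS (0.04 ± 0.31, adjusted p = 0.958).

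Set directly against each other, the BRG1 libraries were lower than the BRM libraries for 24 of the 34 genes. The largest differences were those of ACSM2B (log2 fold change -5.56 ± 0.47, adjusted p = 1.62e-06), ACSM2A (-4.53 ± 0.52, adjusted p = 1.82e-05) and ACSM3 (-4.53 ± 0.37, adjusted p = 1.33e-06), followed by SLC25A20 (-2.96 ± 0.27, adjusted p = 2.86e-06). BDH1 (-2.68 ± 0.34, adjusted p = 4.09e-05), HADH (-2.49 ± 0.39, adjusted p = 0.000225), ACAA2 (-2.30 ± 0.16, adjusted p = 3.41e-07), CPT1A (-2.15 ± 0.23, adjusted p = 1.03e-05) and EHHADH (-2.03 ± 0.17, adjusted p = 1.58e-06) were also more than 2 log2 units lower. All 4 peroxisomal and all 3 auxiliary genes were lower, the smallest of these differences being that of DECR1 (-0.93 ± 0.24, adjusted p = 0.00724). The other called genes were ACAA1 (-1.92), ACOX2 (-1.83), HSD17B4 (-1.64), ACADSB (-1.72), ECI2 (-1.55), ECI1 (-1.32), CPT2 (-1.30), CRAT (-1.27), ETFA (-1.23), ACADM (-1.16), ACAD9 (-1.13), ETFB (-1.08), HADHB (-1.01) and ECHS1 (-0.94), on the log2 scale. ACADVL was the 1 gene higher in BRG1 than in BRM libraries (0.73 ± 0.21, adjusted p = 0.0152). ACADS, ACAD11, HADHA, ETFDH, SLC22A5, ACSL1, ACSL3, ACSL4 and ACSL5 were not called by edgeR's unpaired fit, and DESeq2 called HADHA and ACSL1 lower. Of the 25 calls, 21 held when any 1 library of these groups was left out, and those of ACADVL, CRAT, DECR1 and ECHS1 did not, each being lost without 1 BRM library (replicate 2 for ACADVL and DECR1, replicate 3 for CRAT and ECHS1).

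**Figure D5:**
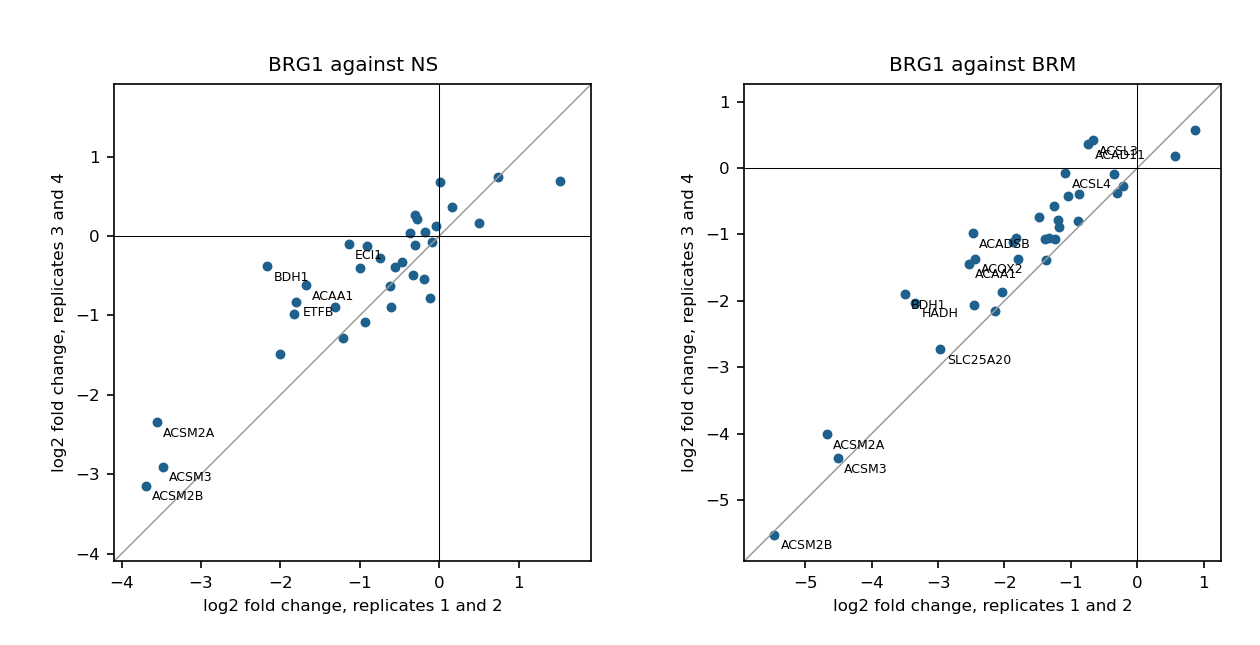
Log2 fold change of each of the 34 genes within replicates 1 and 2 (horizontal) and within replicates 3 and 4 (vertical), for BRG1 against NS on the left and BRG1 against BRM on the right, with the line of equal values. The ACSM genes lie at the lower left in both plots, and BDH1 and ACAA1 lie above the line, further from 0 in replicates 1 and 2.

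The double libraries were below the BRM libraries for 22 of the 34 genes (64.7%) and above them for none, where 19.1% of all tested genes were called, 9.32% higher and 9.74% lower. At an unadjusted p under 0.05, 1 gene was higher in double than in BRM libraries, and DESeq2 called 1 higher. Scaled by total counts, 1 gene was called higher and 19 lower, where 20.7% of all genes were called, and 68.3% of the calls over all genes were then higher, in place of 48.9%. ACSM2B (log2 fold change -3.89 ± 0.43, adjusted p = 3.83e-05), ACSM2A (-3.03 ± 0.49, adjusted p = 0.000573), ACSM3 (-1.96 ± 0.34, adjusted p = 0.000947), HADH (-1.85 ± 0.39, adjusted p = 0.00393) and SLC25A20 (-1.83 ± 0.27, adjusted p = 0.000275) differed most. All 4 peroxisomal genes and all 5 genes of the hydratase, dehydrogenase and thiolase steps were lower in double than in BRM libraries, HADHA among them (-0.92 ± 0.23, adjusted p = 0.0124). Of the 22 calls, 15 held when any 1 library was left out. CPT2, ETFA and HADHB were lost without BRM replicate 2, where HADHB was -0.48 in place of -0.75, ECHS1 without BRM replicate 3, HADHA without either of these, ACADM without BRM replicate 1 or 2, and CPT1A without BRM replicate 2 or 3 or double replicate 1 or 2.

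Against BRG1 libraries, the double libraries were higher for 7 of the 34 genes and lower for 1, 8 in all (23.5%), where 10.8% of all tested genes were called, 4.1% higher and 6.72% lower. The genes that were higher were ACSM3 (log2 fold change 2.57 ± 0.33, adjusted p = 0.000334), ACSM2B (1.68 ± 0.43, adjusted p = 0.0224), CPT1A (1.41 ± 0.22, adjusted p = 0.000961), BDH1 (1.22 ± 0.32, adjusted p = 0.0235), SLC25A20 (1.14 ± 0.25, adjusted p = 0.00921), ACAA2 (0.74 ± 0.15, adjusted p = 0.0044) and ETFA (0.55 ± 0.15, adjusted p = 0.0324). ACSL1 was lower in double than in BRG1 libraries (-1.020 ± 0.16, adjusted p = 0.00112). Leaving out BRG1 replicate 1, double replicate 1 or double replicate 2 left 5 calls in each case (14.7%), where 7.2%, 6.47% and 6.4% of all genes were called. SMARCA4 was itself higher in the double libraries of this comparison, as given above. ACSM2B, BDH1 and ETFA were the genes whose calls were lost, BDH1 and ETFA also without BRG1 replicate 2, and ETFA also without BRG1 replicate 3 or BRG1 replicate 4.

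The interaction, the double knockdown's log2 fold change less the sum of those of the single knockdowns, asks whether the effects of the single knockdowns add up. It was called for 3 of the 34 genes (8.82%), all negative, where 0.499% of all tested genes were called, 0.103% positive and 0.397% negative. ACSL1 had the largest, -2.16 ± 0.24 (adjusted p = 0.000729), and it was called when any 1 of the 15 libraries was left out. ACSL1 was above NS after either single knockdown and overlapped NS after double knockdown. SLC25A20 (-1.76 ± 0.36, adjusted p = 0.0485) and ECI2 (-1.16 ± 0.24, adjusted p = 0.0485) were called with all libraries. The call of SLC25A20 held only without NS replicate 1, BRM replicate 1 or BRM replicate 3, and that of ECI2 only without BRM replicate 1 or BRM replicate 3. None of the 34 genes had a positive interaction at the threshold, with 2 at an unadjusted p under 0.05 and none by DESeq2. With total-count scaling 54.7% of all interaction calls were positive, in place of 20.5%, and ACSL1 alone of the 34 was called, where 0.513% of all genes were.

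Of 96 further genes of fatty acid oxidation, its regulators and ketone body use, 83 passed the filter. After BRG1 knockdown 8 rose and 18 fell, after BRM knockdown 19 rose and 2 fell, and after double knockdown 5 rose and 18 fell. These are 31.3%, 25.3% and 27.7% of the 83, beside 22.5%, 13.9% and 21.6% of all tested genes, and the share after double knockdown is near that of all genes. The medians of their log2 fold changes were -0.28, 0.25 and -0.14, where those of all tested genes were 0.02, 0.03 and 0.02. The smallest adjusted p after BRG1 knockdown belonged to PPARD, a fatty acid receptor that rose (log2 fold change 1.71 ± 0.20, adjusted p = 4.32e-05), followed by the mitochondrial short-chain acyl-CoA synthetases ACSS1 (-1.29 ± 0.18, adjusted p = 0.000154) and ACSS3 (-1.51 ± 0.21, adjusted p = 0.000178) and the bile acid receptor NR1H4 (-2.73 ± 0.39, adjusted p = 0.000213), which fell. After BRM knockdown they were PHYH, the peroxisomal phytanoyl-CoA hydroxylase (1.94 ± 0.22, adjusted p = 8.96e-05), ACSS1 (1.52 ± 0.19, adjusted p = 0.000169), BDH2 (1.57 ± 0.25, adjusted p = 0.00106) and the peroxisomal thiolase and carrier SCP2 (1.19 ± 0.20, adjusted p = 0.00132), all of which rose. After double knockdown they were the mitochondrial carrier SLC25A29 (-1.87 ± 0.23, adjusted p = 5.66e-05), ACSS1 (-1.47 ± 0.18, adjusted p = 5.66e-05), ACSS3 (-1.502 ± 0.21, adjusted p = 0.000178) and PPARA, the receptor that drives fatty acid oxidation genes in liver (-1.37 ± 0.19, adjusted p = 0.000178), all of which fell.

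In the authors' deposited table for BRG1 knockdown, 2 of the 34 genes were higher and 14 lower at an adjusted p under 0.05, a threshold that 24.6% of all genes with an adjusted p passed. The authors' deposited table for BRM knockdown had 21 higher and 1 lower, where 18.2% of all genes passed. The authors' deposited table for double knockdown had 3 higher and 8 lower, where 22.3% of all genes passed. The headers of these tables do not name the group each knockdown was set against.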

How the data were processed

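The authors deposited a table of estimated counts per gene symbol for the 15 libraries, whole numbers that are not normalized. They also deposited comparison tables that, per the file headers, hold a log2 fold change and an adjusted p-value for each gene. Per the submitters' processing notes, kallisto, GRCh38 and DESeq2 were used. No version, annotation or strand option is stated in these sources. This kind of quantification divides reads shared by similar transcripts by estimation, so paralogs and overlapping genes carry that uncertainty. Shared 31-base words were counted over GENCODE v29 transcripts.

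Library totals ran from 11500149 to 27187991 counts. Genes passing filterByExpr were fitted with edgeR 4.0.16 (limma 3.58.1, R 4.3.3): TMM factors, the robust quasi-likelihood F test, group means of all 15 libraries, 7 contrasts and Benjamini-Hochberg adjustment over 14621 genes. Tests are two-sided. Alternatives were RLE size factors, total-count scaling, no filter, DESeq2 1.42.0, a replicate block, a term for the replicate set, each set alone, the compared groups alone, ACSM2A and ACSM2B summed, and leaving out each library. The HADHA to HADHB ratio within sets and by pairs was added after seeing the data. The main fit and its calls paired no libraries. Some results paired by replicate number are given beside it, for groups whose same-numbered samples all deviated together from their group means (correlation over 0.1). These were BRG1 with NS (0.427 to 0.565), double with NS (0.179 to 0.454) and BRG1 with BRM (0.104 to 0.532). The edgeR step was tested on simulated data.

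The 34 genes, the other lists and the comparisons were chosen with earlier results of these data known. Genes called in at least 1 comparison with NS or in BRG1 against BRM were named with values, per library for those called in at least 2 or among the 3 highest or lowest. Of the other pathway genes, the 4 with the smallest adjusted p per comparison with NS were named. ACSM1, ACSM5 and the ratio of HADHA to HADHB were added after their values had been seen.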

Additional observations from a re-analysis of the deposited data

Results flagged for a closer look

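Of 102 groups of 4 libraries, 1 for each of the 34 genes in each of the BRG1, double and NS groups, 3 had a library far from the rest by Dixon's test, where chance gives about 1 in 20. ACADVL had 149.8 CPM in double replicate 3, below 185 CPM in the next library. HSD17B4 had 87.6 CPM in double replicate 3, below 117 CPM in the next library. ACSL5 had 102 CPM in double replicate 4, above 67.1 CPM in the next library. Of these genes HSD17B4 alone was called after double knockdown, and it was still called without double replicate 3.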

How the results depend on the processing

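No called log2 fold change turned its sign under any alternative run. With RLE size factors 100 of 103 calls held, without the filter 93, with total counts 88, with the compared groups alone 88 of 100, and with DESeq2, the replicate block and the replicate set term all 103. Within replicates 1 and 2, 101 held, and within replicates 3 and 4, 80. The reason for this difference was not tested. Of the calls lost within replicates 3 and 4, 4 were of BRG1 against NS and 3 of double against BRG1. The others were in comparisons that use the BRM library of that set.

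Apart from the fits that left out 1 library, given below, the counts of called genes that moved by over 1.5 times were these. Each is given with the share of all genes called in that fit. After double knockdown the count was 16 with the replicate set term (38.6%) and 19 within replicates 3 and 4 (34.3%), in place of 9 (21.6%). For double against BRG1 it was 17 with the replicate block (22.3%), 19 with the set term (25.5%), 21 within replicates 1 and 2 (27.5%) and 5 within replicates 3 and 4 (10.9%), in place of 8 (10.8%). The interaction count was 1 with total counts (0.513%), 8 with the replicate block (4.33%), 8 with the set term (7.26%) and 6 within replicates 1 and 2 (11.2%), in place of 3 (0.499%). The cause of these shifts was not tested. For comparisons that met the correlation rule above, the block gave 18 in place of 15 for BRG1 against NS (36.4% of all genes in place of 22.5%). It gave 13 in place of 9 for double against NS (35.6% in place of 21.6%). For BRG1 against BRM it gave 28 in place of 25 (49.4% in place of 33.9%). Among comparisons that did not meet it, the block gave 27 in place of 21 for BRM against NS (28.4% of all genes in place of 13.9%). For double against BRM it gave 28 in place of 22 (36.3% in place of 19.1%). The block lost none of the calls.

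Leaving out 1 library gave 13 to 15 calls for BRG1 against NS, 11 to 19 for BRM against NS, 7 to 9 for double against NS, 23 to 26 for BRG1 against BRM, 5 to 11 for double against BRG1, 16 to 23 for double against BRM and 1 to 3 for the interaction. With 1 library of BRM left in replicates 3 and 4, that library is assumed to vary like the others. Calls of low genes such as ACSM2A rest on few counts.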
